A study of Mus musculus with 6 samples.

Results

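The genes of the DNA replication machinery were examined in RNA from lung tumors and normal lung of RPM mice, in which Cre recombinase starts small cell lung cancer. The set was defined by a list of 50 gene symbols covering origin licensing, the replicative helicase, the polymerases, the sliding clamp and the factors that finish and package the new strand, and all 50 were among the 22477 symbols of the count table. RNA came from 2 samples of normal lung, called normal 1 and 2, and from 4 tumors, called tumor 3, 4, 5 and 6 after the numbers in the sample titles. Every sample, normal lung included, carries the genotype Rb1/Trp53/MycT58A and the treatment Ad5CGRP-Cre in its labels. In this line Rb1 and Trp53 (p53) are floxed (fl/fl) and the T58A form of Myc is held silent by a lox-stop-lox cassette (lsl/lsl), so the alleles are altered only in cells that receive Cre. Cre came from an adenovirus with the CGRP promoter, which is active in pulmonary neuroendocrine cells, given into the trachea, at 8 weeks of age in the cohort the labels describe. The age at collection and any drug arm of these 6 samples are not given in the labels, and each library names its own mouse. The protocol lists vehicle, entinostat, anti-PD-1 and their combination, so the absence of drug cannot be assumed.

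Replication starts at origins bound by the origin recognition complex (ORC). In G1 phase ORC, Cdc6 and Cdt1 load the MCM2-7 helicase ring onto DNA, a step called licensing, and geminin then blocks Cdt1 so that no origin is licensed again in the same cycle. In S phase Cdc45 and the GINS complex join MCM2-7 to form the active helicase, polymerase alpha-primase lays down primers, and polymerases epsilon and delta copy the strands, held to DNA by the PCNA clamp. Many of these genes are transcribed in late G1 by E2F factors, which the retinoblastoma protein restrains. Genes of this kind serve as markers of proliferating cells in tumors, while adult lung contains few dividing cells.

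Total counts were 91049413 to 99122494 in normal lung and 54735438 to 70817440 in tumors, and the lowest count of any member in any library was 37, for Dscc1 in normal 1. The labels were checked against marker genes. Levels are given as CPM, counts per 1000000 counts of the library after scaling for composition by the trimmed mean of M-values (TMM). The summed level of 6 neuroendocrine markers was 15.6 to 19.2 CPM in normal lung and 619 to 963 CPM in tumors. All 6 rose, and Neurod1, at 0 in normal 1, was the only listed marker at 0 in any library. That of 5 endothelial markers was 2484 to 2749 CPM in normal lung and 42.5 to 70.5 CPM in tumors, that of 5 alveolar type 2 markers 18403 to 19896 CPM in normal lung and 54.8 to 635 CPM in tumors, that of 5 T cell markers 16.5 to 20.6 CPM in normal lung and 1.99 to 4.93 CPM in tumors, and that of 4 B cell markers 37.3 to 73.7 CPM in normal lung and 1.77 to 16.3 CPM in tumors. The level of 5 macrophage markers was 314 to 357 CPM in normal lung and 58.4 to 88.1 CPM in tumors, and that of 4 fibroblast markers 1126 to 1140.0 CPM in normal lung and 179.9 to 438 CPM in tumors. By these sums tumor 6 was the lowest of the tumors for alveolar type 2 markers and the highest for fibroblast markers. Not every marker went this way. Abca3 was at 43.5, 46.1, 69.5 and 48.3 CPM in tumors 3 to 6, and Pdgfra at 14.8, 15.1, 38.2 and 12.5 CPM. The other alveolar type 2 markers were lowest in tumor 6, and the other fibroblast markers were highest there. All 5 endothelial and all 5 alveolar type 2 markers fell, as did 4 of the T cell, 3 of the B cell, 3 of the macrophage and 3 of the fibroblast markers. Small noncoding RNA and histone genes, grouped with the ribosomal RNA precursor Rn45s, took 0.364% and 0.724% of counts in normal 1 and 2. In tumors the share was 7.18% to 15.8%. The part of these differences in tissue makeup and RNA composition in the results below was not tested.

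All 50 genes of the replication machinery were higher in tumors at an adjusted p below 0.05 in edgeR's quasi-likelihood test, against 31.3% of the 18027 genes tested. The list was chosen with earlier results of these data known, so the counts here describe the set and are not independent support. The number lower was 0, also at an unadjusted p under 0.05 and with DESeq2 and limma voom, while 32.6% of all genes tested were lower in edgeR. Every tumor lay above both normal libraries for each of the 50, a pattern that held for 37.4% of genes tested. No member had every tumor below both normal libraries, which held for 39.8% of genes tested. The median log2 fold change of tumor over normal lung was 2.72, or 6.58-fold, against a median of 0.02 over all genes tested. Standard errors (SE) of the members' log2 fold changes ran from 0.14 to 0.51, and their adjusted p-values reached at most 0.0184. At least 4-fold increases were seen for 36 members and at least 8-fold increases for 19, against 15.4% and 9.91% of genes tested. Together the 50 genes took 0.0934% and 0.0999% of all counts in normal 1 and 2 and 0.482%, 0.450%, 0.577% and 0.471% in tumors 3 to 6. In whole tissue, a larger share of dividing cells and more RNA per cell cannot be told apart.

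**Figure D1:**
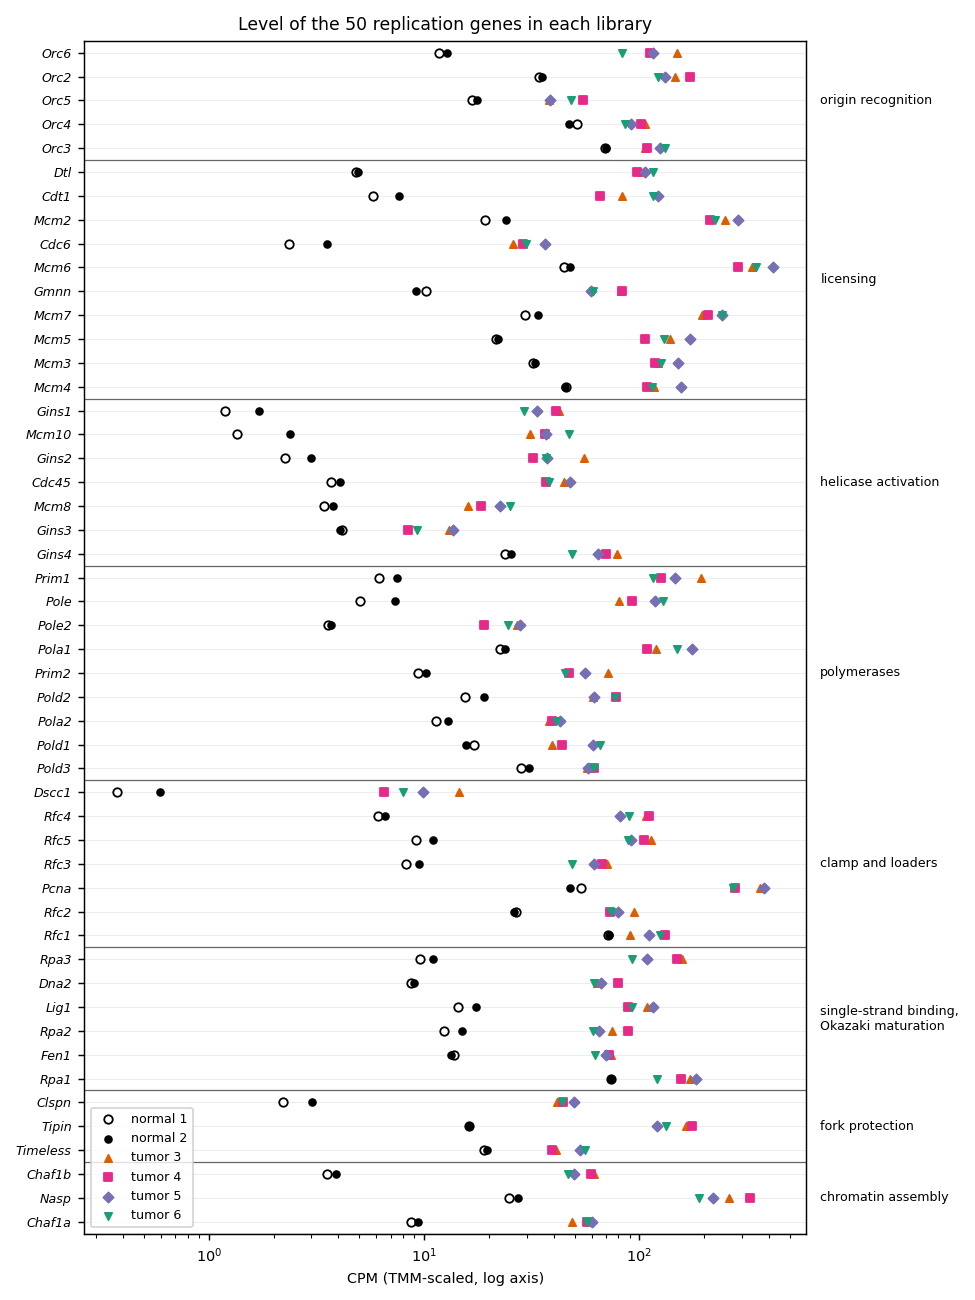
Level of each of the 50 replication genes in the 6 libraries, in TMM-scaled CPM on a log axis, with genes grouped by role and ordered by fold change within a role. Circles are the 2 normal lungs and filled symbols the 4 tumors, and for every gene all 4 tumors lie to the right of both normal lungs.

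The increases spanned a wide range, from 1.59-fold for Rfc1 to 25.2-fold for Gins1. Helicase activation genes, with Mcm8 placed among them, had the highest median log2 fold change of the 8 role groups, 3.43 over 7 genes. Chromatin assembly followed at 3.25 over 3 and fork protection at 3.20 over 3. Licensing stood at 2.89 over 10 genes, the clamp and its loaders at 2.81 over 7, single-strand binding and Okazaki fragment maturation at 2.54 over 6, and the polymerases at 2.49 over 9. Origin recognition was lowest, at 1.39 over 5 genes. Every group except chromatin assembly held both genes above and genes below a log2 fold change of 2, and differences between the groups were not tested. Members with more RNA in normal lung rose by smaller factors. Across the 50 genes the log2 fold change and the log2 of the mean normal CPM had a Pearson correlation of -0.725 and a Spearman correlation of -0.709, a description only, because the normal level enters both quantities.

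**Figure D2:**
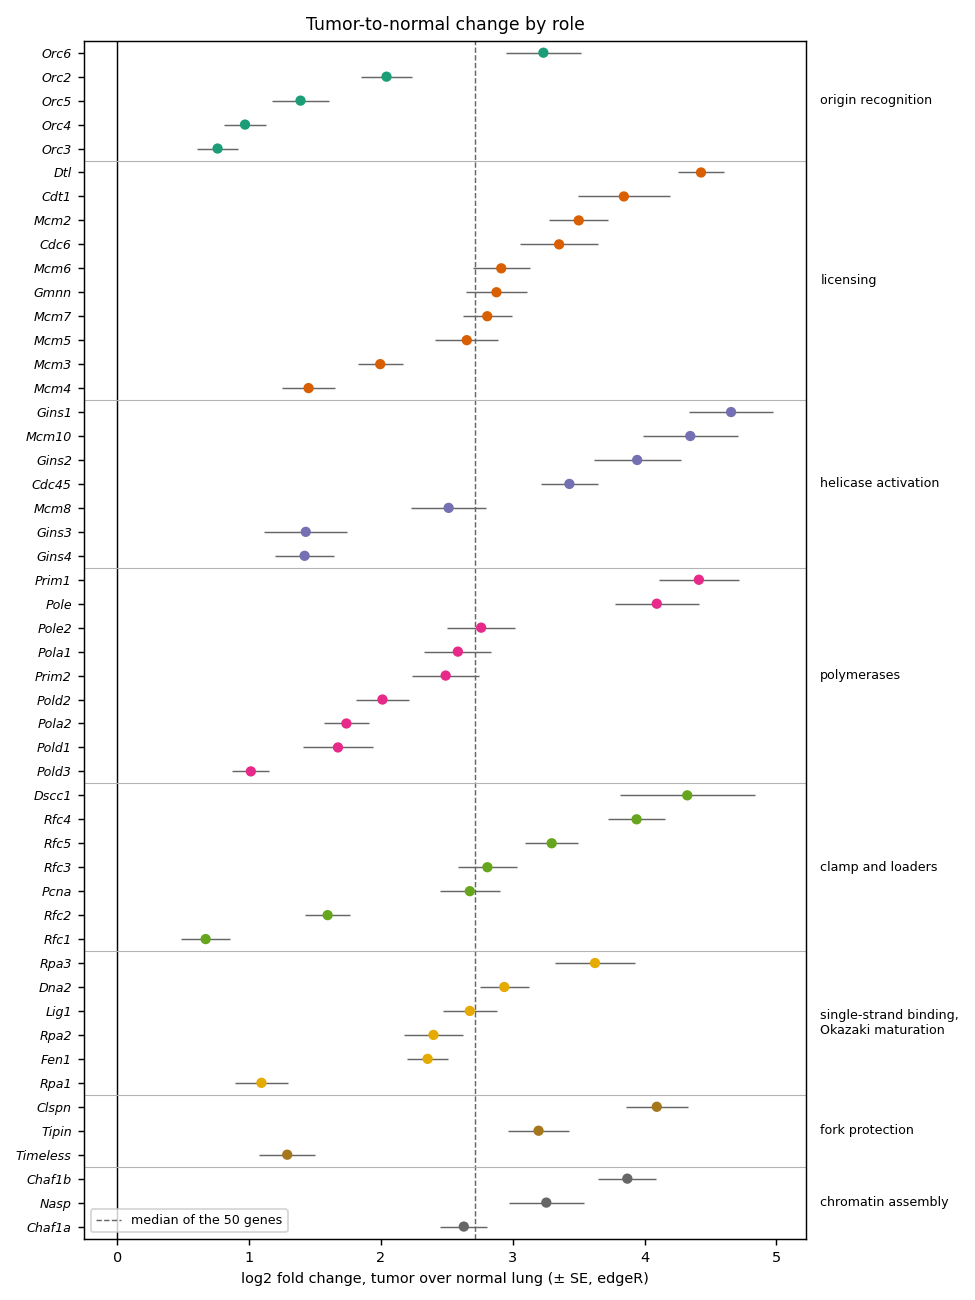
Log2 fold change of tumor over normal lung for the 50 genes by role, with the standard error of the edgeR fit as bars; the solid line is 0 and the dashed line the median of 2.72. All 50 points lie to the right of 0, and within most roles they run from near 1 to near 4.

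Promoters of the set were searched for the core of the E2F binding site, because these genes moved together and E2F is known to act on many of them. The letters searched were TTTNGCGC and TTTCCCGC, on both strands, in windows from 250 bases before to 50 after each RefSeq transcription start on GRCm38.p6. A promoter was listed for 40 members, the others being Gmnn, Mcm4, Gins1, Gins2, Gins4, Prim2, Pole, Rfc2, Dscc1 and Tipin. The motif was found for 17 of the 40, or 42.5%, and in 35.4% of their 48 windows, against 2.39% of all 32851 windows listed. Among tested genes with a listed promoter, 4.34% held it in at least 1 window. The median log2 fold change was 2.67 over the 17 members with the motif and 2.67 over the 23 without it, and the difference was not tested. Orc3, whose log2 fold change was 0.76, held it, and Prim1, at 4.41, did not. A match is a run of letters and was not tested as a binding site, and windows can miss other sites or other spellings.

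The 6 members of highest fold change among those with a match are shown, so that the site can be seen in its promoter. Each line runs 5′ to 3′ on the gene's strand, with the motif in capitals and up to 30 bases on either side, ending at 30 bases past the transcription start, with a shorter stretch for the Cdt1 match, which lies further in. Where the match is on the other strand, as in Clspn and Cdc6, the capitals show its reverse complement. The stretches are Dtl chr1:191575515-191575582, minus strand; Clspn chr4:126556971-126557009, plus strand; Cdt1 chr8:122568035-122568064, plus strand; Cdc6 chr11:98907983-98908050, plus strand. Those of Mcm6 and Rfc3 are chr1:128359715-128359845, minus strand and chr5:151651179-151651248, minus strand. In Mcm6 the first 2 matches overlap on opposite strands, and Rfc3 holds 2 matches separated by 2 bases.
Dtl: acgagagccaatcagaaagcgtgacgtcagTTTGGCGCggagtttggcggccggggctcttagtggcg
Clspn: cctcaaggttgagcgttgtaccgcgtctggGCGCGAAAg
Cdt1: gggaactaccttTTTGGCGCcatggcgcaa
Cdc6: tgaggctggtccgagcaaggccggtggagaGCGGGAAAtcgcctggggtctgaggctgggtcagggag
Mcm6: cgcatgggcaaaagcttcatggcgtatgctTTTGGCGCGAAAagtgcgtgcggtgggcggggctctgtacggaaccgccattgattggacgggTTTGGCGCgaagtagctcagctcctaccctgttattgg
Rfc3: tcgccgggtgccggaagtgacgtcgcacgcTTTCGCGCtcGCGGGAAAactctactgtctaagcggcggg

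The origin recognition subunits rose least as a group, and unevenly. Orc6, the smallest subunit, was at 11.7 and 12.8 CPM in normal 1 and 2 and at 149, 112, 116 and 82.8 CPM in tumors 3 to 6. Tumor 3 was highest and tumor 6 lowest, and the log2 fold change was 3.23 ± 0.28 (SE; adjusted p = 0.000173). Orc2 stood at 34.1 and 35.2 CPM in normal lung and 146, 172, 131 and 122 in tumors 3 to 6 (log2 fold change 2.04 ± 0.19, adjusted p = 0.000236). Orc2 shares 29.8% of its exon bases with Nif3l1 on the other strand, and reads of such overlaps cannot be told apart in these counts. Orc3, which had the highest normal level per transcript length of the ORC subunits, was at 69.0 and 69.8 CPM in normal lung and 106, 109, 124 and 131 in tumors, a log2 fold change of 0.76 ± 0.15 (adjusted p = 0.00498). Its groups did not overlap, but its call was lost without normal 1 (adjusted p = 0.0564) or normal 2 (adjusted p = 0.0521). Orc4 and Orc5, AAA+ ATPase-fold subunits of the ORC ring, rose 1.96-fold and 2.62-fold. Every tumor was above both normal lungs for these 2 as well, and differences in fold change between subunits were not tested.

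Among the licensing factors, the loaders and their regulators rose by more than most of the helicase ring they load. Cdc6, the ATPase that recruits MCM2-7 with Cdt1, was at 2.36 and 3.56 CPM in normal 1 and 2 and 26.0, 28.8, 36.4 and 29.6 in tumors 3 to 6 (log2 fold change 3.35 ± 0.29, adjusted p = 0.000174). Cdt1 was at 5.81 and 7.65 CPM in normal lung and 83.1, 65.9, 122 and 116 in tumors, with tumors 5 and 6 above tumors 3 and 4 (log2 fold change 3.84 ± 0.35, adjusted p = 0.000203). Its inhibitor geminin, encoded by Gmnn, was higher in tumors 3 and 4 than in tumors 5 and 6, at 81.9, 83.0, 59.6 and 61.0 CPM in tumors 3 to 6 against 10.2 and 9.21 in normal lung (log2 fold change 2.88 ± 0.23, adjusted p = 0.000129). The ratio of Cdt1 to Gmnn CPM was therefore 0.568 and 0.830 in normal 1 and 2 and 1.01, 0.794, 2.04 and 1.90 in tumors 3 to 6. Tumor 4 fell between the 2 normal lungs, so the ratio did not separate the groups. Dtl encodes the substrate receptor of the CRL4 ubiquitin ligase that destroys Cdt1 on PCNA-loaded DNA. It was at 4.84 and 4.94 CPM in normal lung and 101, 97.3, 107 and 116 in tumors, with a coefficient of variation among tumors of 7.52%, and its log2 fold change of 4.43 ± 0.18 was the highest of the licensing genes (adjusted p = 2.46e-05).

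The 6 subunits of the MCM2-7 ring, which are present once each in the complex, all rose but by unequal factors. Mcm2 was at 19.2 and 24.0 CPM in normal 1 and 2 and 249, 213, 289 and 226 in tumors 3 to 6, a rise of 11.3-fold (adjusted p = 5.96e-05). Mcm6 was at 44.6 and 47.5 CPM in normal lung and 335, 288, 418 and 347 in tumors (2.91 ± 0.21 on the log2 scale, adjusted p = 9.65e-05). The level in the lowest tumor was at least 6-fold that in either normal lung for both. Mcm4 had the smallest change of the ring, from 45.5 and 45.2 CPM to 117, 108, 157 and 114 (1.45 ± 0.20, adjusted p = 0.000999). Mcm7 rose 7.00-fold, Mcm5 6.28-fold and Mcm3 3.99-fold. Taken over all its annotated transcripts, Mcm7 also has exon bases that overlap the Mir25 and Mir93 hairpins. Each of the 6 subunits was highest in tumor 5 with TMM, RLE, upper quartile and total count scaling, and 5 of them, all but Mcm7, were lowest in tumor 4 after TMM scaling. Per kilobase of transcript, the ratio of the highest to the lowest MCM2-7 subunit within a library was 1.93 to 2.23 in normal lung and 2.20 to 2.57 in tumors. In normal lung Mcm2 was the lowest subunit and Mcm4 the highest by group means.

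Factors that turn the loaded ring into an active helicase held some of the largest changes. Cdc45 was at 3.68 and 4.06 CPM in normal 1 and 2 and 44.5, 36.7, 47.5 and 38.0 in tumors 3 to 6 (log2 fold change 3.43 ± 0.22, adjusted p = 5.96e-05). Mcm10, needed for helicase activation and not part of the ring, went from 1.35 and 2.37 CPM to 31.1, 36.3, 36.9 and 47.2 and was highest in tumor 6 (4.35 ± 0.36, adjusted p = 0.000142). Tumors were well clear of normal lung for both genes, and the higher of the normal lungs was normal 2 each time. The 4 GINS subunits split into a pair with large and a pair with small increases. Gins1 was at 1.19 and 1.70 CPM in normal lung and 42.5, 41.0, 33.4 and 29.0 in tumors, the largest increase of the 50 genes (4.66 ± 0.32, adjusted p = 7.47e-05). Gins2 was at 2.27 and 2.98 CPM and 55.2, 32.1, 37.4 and 36.7 CPM (3.94 ± 0.33, adjusted p = 0.000149), and 67.3% of its annotated exon bases lie over Gse1 on the other strand, which itself rose by 0.85. No tumor came near either normal lung for this pair. Gins4 stood higher in normal lung, at 23.7 and 25.3 CPM, and reached 78.9, 70.2, 64.1 and 48.8 in tumors (1.42 ± 0.22, adjusted p = 0.00178). Gins3 went from 4.17 and 4.09 to 13.1, 8.46, 13.6 and 9.32 CPM (1.43 ± 0.31, adjusted p = 0.00704), a call lost without normal 1 (adjusted p = 0.0601) or normal 2 (adjusted p = 0.0603). Mcm8, which forms a separate helicase with Mcm9 in homologous recombination, rose 5.71-fold from 3.41 and 3.77 CPM. Relative to Mcm10 it was lower in every tumor, with Mcm8 to Mcm10 ratios of 2.53 and 1.59 in normal 1 and 2 and 0.514, 0.509, 0.609 and 0.530 in tumors 3 to 6.

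Of the polymerase genes, the catalytic subunits of primase and of polymerase epsilon rose most. Prim1, which synthesizes the RNA primer, was at 6.19 and 7.48 CPM in normal 1 and 2 and 194, 126, 146 and 116 in tumors 3 to 6 (log2 fold change 4.41 ± 0.30, adjusted p = 7.49e-05). Its partner Prim2 went from 9.35 and 10.2 to 71.5, 46.9, 56.1 and 45.3 CPM (2.49 ± 0.25, adjusted p = 0.000306). Both primase subunits were highest in tumor 3 and lowest in tumor 6. Pola1, the catalytic subunit of polymerase alpha, rose 5.99-fold and was highest in tumor 5, at 176 CPM, and its accessory subunit Pola2 rose 3.34-fold with a tumor range of only 38.1 to 42.9 CPM. Pole, the leading-strand polymerase, was at 5.02 and 7.30 CPM in normal lung and 80.2, 92.8, 118 and 129 in tumors (4.09 ± 0.32, adjusted p = 0.000116), and Pole2 rose 6.78-fold. The polymerase delta subunits, which serve lagging-strand synthesis and also DNA repair, were measured in 3 members. Pold1, its catalytic subunit, went from 17.1 and 15.7 to 39.4, 43.8, 60.9 and 65.4 CPM (1.67 ± 0.27, adjusted p = 0.00182), while Pold2 rose 4.03-fold and Pold3 2.02-fold.

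The sliding clamp and its loaders included both the gene with the highest level per length of the set, Pcna, and one of the lowest in tumors, Dscc1. Pcna was at 53.5 and 47.9 CPM in normal 1 and 2 and 365, 279, 379 and 271 in tumors 3 to 6 (log2 fold change 2.67 ± 0.23, adjusted p = 0.000159). Tumors 3 and 5 were the higher pair, and all were at least 5-fold above either normal lung. The annotation names the processed pseudogenes Pcna-ps1 and Pcna-ps2, which have no row of their own in the count table, and reads that match both gene and pseudogene may have been split or lost. Rfc4, a small subunit of the clamp loader, was at 6.12 and 6.57 CPM in normal lung and 107, 111, 81.5 and 89.7 in tumors (3.94 ± 0.22, adjusted p = 4.26e-05). It overlaps Eif4a2 over 12.7% of its exon bases, and Eif4a2 itself did not pass the test (adjusted p = 0.125). Rfc5 and Rfc3 rose 9.82-fold and 7.00-fold, and Rfc2 3.02-fold. Rfc2 overlaps Lat2 over 15.1% of its exon bases and Rfc5 overlaps Wsb2 over 10.7%, and neither partner passed the test. Rfc1, the large subunit that gives the loader its specificity for PCNA in replication, was at 71.6 and 72.1 CPM in normal lung and 90.6, 131, 111 and 125 in tumors, the smallest change of the 50 (0.67 ± 0.19, adjusted p = 0.0184). Its call was lost without normal 1 (adjusted p = 0.118) or normal 2 (adjusted p = 0.112), although tumors and normal lungs did not overlap. Dscc1 belongs to the alternative loader built on Chtf18, in which it takes part with the small RFC subunits. It was at 0.376 and 0.593 CPM in normal lung and 14.5, 6.54, 9.86 and 8.02 in tumors (4.32 ± 0.51, adjusted p = 0.000540), the most variable member among tumors, with a coefficient of variation of 35.5%.

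Replication protein A (RPA), which coats single-stranded DNA as a trimer, rose in unequal steps. Rpa3, the smallest subunit, was at 9.54 and 11.0 CPM in normal 1 and 2 and 157, 149, 109 and 92.3 in tumors 3 to 6 (log2 fold change 3.62 ± 0.31, adjusted p = 0.000149). Rpa2 went from 12.4 and 14.9 to 74.4, 88.6, 64.9 and 60.8 CPM (2.40 ± 0.22, adjusted p = 0.000219). Rpa1, the large DNA-binding subunit, was at 74.2 and 74.1 CPM in normal lung and 172, 156, 184 and 121 in tumors (1.09 ± 0.20, adjusted p = 0.00349). All 3 were lowest in tumor 6, and the groups overlapped for none. The enzymes that mature Okazaki fragments moved close together, with increases of 5.11-fold for the flap endonuclease Fen1, 6.38-fold for DNA ligase 1 (Lig1) and 7.65-fold for the nuclease and helicase Dna2. Fen1 was at 13.8 and 13.4 CPM in normal lung and 73.9, 72.6, 69.7 and 62.4 in tumors (2.35 ± 0.16, adjusted p = 7.04e-05), among the most even of the set across tumors. Of its annotated exon bases, 78.8% lie over the antisense gene Gm10143, which has no row in the count table.

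The fork protection genes Timeless and Tipin encode partners in a single complex, and their increases differed in size. Tipin was at 16.2 and 16.2 CPM in normal 1 and 2 and 165, 176, 121 and 133 in tumors 3 to 6 (log2 fold change 3.20 ± 0.23, adjusted p = 8.55e-05). Timeless went from 19.0 and 19.7 to 40.9, 39.1, 53.0 and 56.2 CPM (1.29 ± 0.21, adjusted p = 0.00218). Tipin was higher in tumors 3 and 4 than in tumors 5 and 6, and Timeless was higher in tumors 5 and 6. Clspn encodes claspin, the adaptor that passes the fork signal to Chk1. It was at 2.21 and 3.03 CPM in normal lung and 41.5, 44.1, 49.5 and 43.9 in tumors (4.09 ± 0.24, adjusted p = 4.60e-05).

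Chromatin assembly genes were the group with no small increase. Chaf1a and Chaf1b encode subunits of CAF-1, which places new histones H3 and H4 behind the fork. Chaf1b was at 3.55 and 3.89 CPM in normal 1 and 2 and 61.6, 59.6, 49.8 and 46.5 in tumors 3 to 6 (log2 fold change 3.87 ± 0.22, adjusted p = 4.53e-05). Chaf1a rose 6.18-fold, with 52.5% of its annotated exon bases over Ubxn6 on the other strand, which did not pass the test. Nasp, a histone chaperone that protects the pool of soluble H3 and H4, was at 24.8 and 27.4 CPM in normal lung and 261, 327, 221 and 189 in tumors (3.25 ± 0.28, adjusted p = 0.000167). Tumor 4 had the most and tumor 6 the least. The annotation names the processed pseudogene Nasp-ps1, which has no row of its own in the count table. Reads that match both it and Nasp may have been split or lost.

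Levels of different genes were compared per kilobase of transcript. The length was that of the longest coding transcript linked to a curated RefSeq mRNA, and a gene that ends earlier in these cells would be set too low. In tumors Pcna led the 50 genes at 213 ± 37.2 CPM per kb (SD, n = 4), ahead of Rpa3 at 189 ± 47.0, and these 2 overlapped within their SD. The lowest were Gins3 at 4.41 ± 1.03, Mcm8 at 6.04 ± 1.19 and Dscc1 at 6.49 ± 2.31 CPM per kb, which also did not separate. In normal lung Pcna was again first, at 33.4 ± 2.61 CPM per kb (SD, n = 2). With all exon bases of the gene as length, Pcna and Rpa3 were again first and second in tumors, at 135 and 112 CPM per kb, and Pcna was first in normal lung at 21.1. Other ranks changed with the length. Nasp was at 98.9 CPM per kb in tumors by transcript and 33.2 by all exon bases, Prim1 at 91.9 and 37.6, and Dscc1, the lowest by all exon bases, at 6.49 and 2.20.

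Within some complexes the subunits were at like levels per length in normal lung and at unlike levels in tumors. The 4 subunits of polymerase alpha-primase lay within a factor of 1.20 to 1.21 of each other in normal lung, and within 4.31 to 7.78 in tumors, where Prim1 was the highest and Pola2 the lowest. The corresponding ratio for RPA was 2.00 to 2.13 in normal lung and 4.53 to 7.26 in tumors, and for the 4 small RFC subunits it was 1.81 to 1.91 in normal lung and 4.18 to 6.17 in tumors. With Rfc1 included, the clamp loader gave 3.84 to 4.58 in normal lung and 4.18 to 6.17 in tumors, which overlapped. By all exon bases the mean ratio of the whole loader was the higher in normal lung, at 5.55 against 5.03 in tumors. GINS differed the other way, with ratios of 24.5 to 30.2 in normal lung and 8.81 to 15.5 in tumors, and so did the polymerase epsilon pair, at 2.12 to 2.99 in normal lung and 1.01 to 1.41 in tumors. The CAF-1 pair stood at 1.18 to 1.20 in normal lung and 2.34 to 3.67 in tumors. The ranges of normal lungs and tumors did not overlap for polymerase alpha-primase, RPA, the small RFC subunits, CAF-1, GINS and polymerase epsilon. They overlapped for MCM2-7, the ORC members and polymerase delta. These are measured ratios with no test, since 2 against 4 libraries cannot reach a p of 0.05 by permutation. Where these transcripts end in the libraries was not measured, so the ratios depend on the annotated lengths. By tumor means, the highest subunit was the shortest transcript for polymerase alpha-primase, RPA, the small RFC subunits and CAF-1. It was not for GINS or polymerase epsilon, and the part of length was not tested. With the union of all exon bases as length, the direction was the same for every complex whose ranges did not overlap. The MCM2-7 ratio in normal lung then rose to 3.66 to 4.60, above that in tumors.

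**Figure D3:**
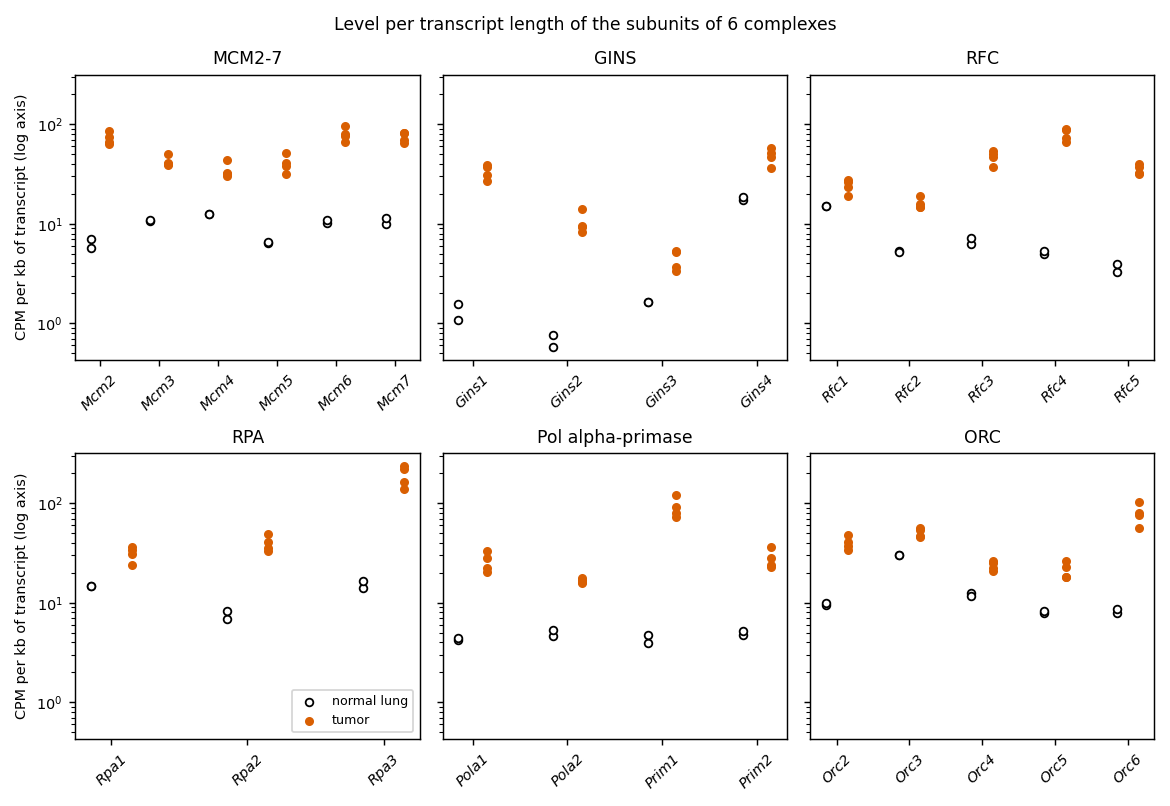
CPM per kilobase of transcript, on a log axis shared by all panels, for the subunits of 6 replication complexes; open circles are the 2 normal lungs and filled circles the 4 tumors. Polymerase alpha-primase subunits lie close together in normal lung and apart in tumors, while MCM2-7 subunits are spread over a factor of about 2 in both.

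After TMM scaling the 4 tumors differed little in the summed level of the set, at 5088, 4835, 5234 and 4639.9 CPM in tumors 3 to 6, against 940.3 and 981 in normal 1 and 2. With total counts only the sums were 4822, 4500, 5773 and 4717 CPM in tumors 3 to 6. With upper quartile scaling tumor 3 was highest, at 5405 CPM. The median coefficient of variation over the 50 genes was 16.7%, against 20.0% for the 9839 tested genes with a tumor mean of 10 to 500 CPM. For 0 of the 50 genes did a single tumor stand apart from the other 3 by Dixon's criterion. The criterion was applied to the members only, so no share over all genes stands beside this count and nothing is concluded from it. Tumor 5 was the highest tumor for 18 members, tumor 3 for 14, tumor 4 for 10 and tumor 6 for 8, and tumor 5 was the lowest for 3 only. These counts depended on the scaling. With total counts only, tumor 5 was highest for 25, tumor 3 for 13 and tumor 6 for 5, and with upper quartile scaling tumor 3 was highest for 19 and tumor 5 for 15. In normal lung 41 of the 50 genes were higher in normal 2 than in normal 1, as was the summed level of Mki67 and Top2a, at 87.4 against 64.9 CPM. Normal 1 was the higher for 9 of the 50 members. It was the higher for 4650 of the 9839 tested genes with a tumor mean of 10 to 500 CPM.

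Some differences between tumors within the set went with the length of the transcripts. Across the 50 genes the log2 ratio of tumor 6 over tumor 3 had a Pearson correlation with log2 transcript length of 0.583, and that of tumor 5 over tumor 3 one of 0.648. Against tumor 4, it was 0.490 for tumor 6 and 0.373 for tumor 5. Within the pairs it was weaker, at 0.227 for tumor 4 over tumor 3 and 0.141 for tumor 6 over tumor 5. Over 9291 tested genes with a tumor mean of 10 to 500 CPM and a known length the values for tumor 6 and tumor 5 over tumor 3 were 0.294 and 0.469, so the trend was not confined to the set. These correlations run across genes of the same libraries and are descriptions. Of the 25 members with the shorter transcripts, 20 were lower in tumor 6 than in tumor 3, and of the 25 with the longer ones, 10 were. Tumor 3 or 4 was the highest tumor for 18 of the shorter 25, and tumor 5 or 6 for 19 of the longer 25. Cdt1 and Timeless, higher in tumors 5 and 6, have longer transcripts than Gmnn and Tipin, higher in tumors 3 and 4. The tumor-to-normal change was less related to length over the 50 genes, with a Pearson correlation of -0.197. The part of RNA quality in these differences was not tested.

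**Figure D4:**
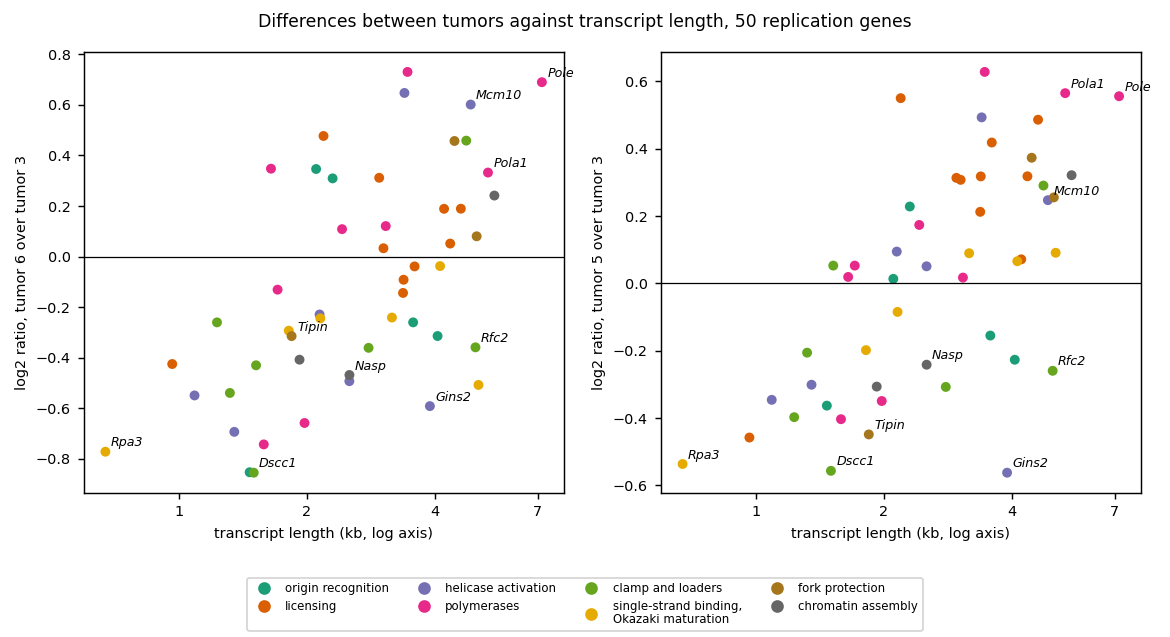
Log2 ratio of CPM between tumor 6 and tumor 3 (left) and between tumor 5 and tumor 3 (right) against transcript length on a log axis, 1 point for each of the 50 genes, colored by role. Rpa3, the shortest transcript, lies below 0 and Pole, the longest, above it in both panels. In the left panel 20 of the 25 shorter transcripts lie below 0, as do 10 of the 25 longer ones.

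Measured against Mki67, the antigen that marks cycling cells, most of the set rose by less. Mki67 was at 38.9 and 53.4 CPM in normal 1 and 2 and 457, 586, 764 and 644 in tumors 3 to 6, a log2 fold change of 3.73 ± 0.31. Of the 50 members, 11 had a larger log2 fold change than Mki67 and 2, Gins1 and Dtl, a larger one than Top2a, at 4.42. The ratio of Pcna to Mki67 CPM was 1.38 and 0.897 in normal 1 and 2 and 0.799, 0.475, 0.496 and 0.421 in tumors 3 to 6, with every tumor below both normal lungs. After TMM scaling tumor 3 had the lowest Mki67 of the tumors but the second highest summed level of the set.

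Of 40 further genes of DNA replication that are not in the set, 32 rose, 2 fell and 6 did not pass the test, with a median log2 fold change of 1.50. Without normal 1 or normal 2 the number that rose was 24 or 23. All 8 genes of origin firing rose (median 3.24). By smallest p they were led by Wdhd1, which couples polymerase alpha to the helicase, at 6.03 and 7.68 CPM in normal lung and 142, 119, 150.4 and 128 in tumors (4.30 ± 0.22, adjusted p = 3.47e-05). Cdc7 and Dbf4, the kinase that fires origins and its activator, rose 14.5-fold and 9.88-fold, Top2a, the topoisomerase that untangles replicated DNA, 21.4-fold, and the RNase H2 subunit gene Rnaseh2a 4.91-fold. 2810417H13Rik, the gene of the PCNA-associated factor PCLAF, rose 51.0-fold, more than any member, from 2.94 and 4.50 to 252, 140.2, 202 and 164 CPM. Orc1, the ORC subunit outside the set, named after its values were seen, rose 14.1-fold (3.82 ± 0.30, adjusted p = 0.000122), more than any of the 5 ORC members.

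The 2 genes that fell were an accessory subunit of a replicative polymerase and a translesion polymerase. Pold4, the smallest subunit of polymerase delta, was at 19.1 and 20.3 CPM in normal 1 and 2 and 7.42, 9.58, 5.77 and 4.32 in tumors 3 to 6, a log2 fold change of -1.54 ± 0.33 (adjusted p = 0.00662), while the 3 polymerase delta genes of the set rose. Polk, a translesion polymerase of the Y family, was at 28.8 and 26.7 CPM in normal lung and 8.61, 11.2, 11.6 and 9.71 in tumors (-1.43 ± 0.20, adjusted p = 0.00113). Every tumor was below both normal lungs for each of them, and both kept their call under all alternatives run. Of the genes that did not pass, Top2b and Poli each passed as higher under 6 of the 15 alternatives, among them RLE and upper quartile scaling and DESeq2. The 6 that did not pass were Poli, a translesion polymerase (0.79 ± 0.31), the topoisomerases Top2b (0.40 ± 0.17) and Top1 (-0.20 ± 0.17), the ORC-associated gene Lrwd1 (0.29 ± 0.25), the ubiquitin ligase adaptor Ddb1 (0.14 ± 0.18) and Chtf8 of the alternative clamp loader (-0.09 ± 0.20).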

How the data were processed

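Per the labels' protocols, DNA and RNA were extracted from the same lysate of flash-frozen tissue, and poly(A) RNA was made into libraries with a NEBNext Ultra II kit. Tools listed by GEO from the submitters' processing notes, with no roles, are R 3.5.1, DESeq2 1.22.2, STAR 2.5.4a, Trimmomatic 0.36 and Trim Galore, and the build is mm9. The deposited values are the authors' raw counts per gene symbol from TPMCalculator. Annotation and strand setting: not given in the sources used here. Of the counts from 1 to 10, 61.2% were even, so both mates of a pair may have been counted.

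All 6 libraries entered a single fit with tissue as the only term, in edgeR 4.0.16 under R 4.3.3, after its filter by group (minimum count 10, minimum total 15), which all 50 members passed, and TMM scaling. Benjamini-Hochberg adjustment covered 18027 genes, with a threshold of 0.05. The SE is the log2 fold change divided by the square root of F. CPM use TMM-scaled library sizes. The test was checked on simulated data. All libraries carry batch 1. The alternatives tried were 3 other scalings (RLE, upper quartile, total counts), no filter, a filter of 1 CPM, DESeq2 1.42.0 and voom of limma 3.58.1. The others were removal of small RNA, histone and Rn45s rows, counts divided by 2, and leaving out each library. The members, roles and lists were chosen with earlier results of these data known. Named by rule were all members and, of the 40 further genes, the 6 that rose with the smallest p and every one that fell or did not pass. Outside this rule, Orc1 was named after its values were seen, and Cul4b and Mcmbp for their lost calls. Mcm9 and Chtf18 appear only as partners of members. Transcript lengths and exon overlaps come from GENCODE M21 and promoters from RefSeq, all on GRCm38 and not mm9.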

Additional observations from a re-analysis of the deposited data

How the results depend on the processing

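All 50 members kept their direction under all 15 alternatives, which included leaving out each library, and their calls were unchanged in 744 of 750 results. The other 6 were Orc3, Gins3 and Rfc1 without normal 1 or normal 2. With a single normal library left, its spread was taken from the tumors. The number of members higher was 47 to 50 and lower 0 throughout, and their median log2 fold change 2.66 to 2.85. Over all genes, the number higher was 3373 to 5912 when a library was left out. Upper quartile scaling moved the median log2 fold change of all genes by 0.12 and dropping the filter by 0.10. Of the 40 further genes, Chtf8, which did not pass, changed sign with upper quartile scaling (0.034) and with the stricter filter (0.0030), and ranged from -0.18 to 0.0024 when a tumor was left out, being positive without tumor 3. The cause was not tested. Among the further genes that rose, Cul4b lost its call under 6 alternatives and Mcmbp under 5. Top2b and Poli gained one under 6 each, with adjusted p of 0.0124 to 0.0495 there. The mean ratio of highest to lowest MCM2-7 level per length in normal lung was 2.08 with the longest transcript and 4.13 with all exon bases, a length choice made after the data were seen. No paired analysis was possible because normal and tumor samples share no replicate number. With 2 normal lungs, small changes rest on their spread.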
